A study of Rattus norvegicus with 4 samples.

Results

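The genes described here encode the proteasome, its regulators and its assembly factors, as measured in the soleus of male Wistar rats. They were chosen by name: every probe set paired with exactly 1 gene whose symbol starts with Psma, Psmb, Psmc, Psmd, Psme, Psmf or Psmg. That rule found 46 of the 14217 named genes on the array, with 60 of its 31042 non-control probe sets. Of these, 44 genes with 58 probe sets encode subunits, activators, an inhibitor or assembly chaperones. The other 2, Psmc3ip and Psme3ip1, match the rule only by their symbols and are given apart. A further 6 probe sets are paired with several genes, among them all those listed for Psmb6 and Psme3, which were therefore not analysed here.

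There were 4 groups, each 1 array of RNA pooled from 8 rats: genistein diet denervated, control diet denervated, genistein diet sham and control diet sham. Rats were 10 weeks old at the start (14 weeks in the age label) and were fed for 24 days a control diet, modified AIN-93G with corn oil in place of soybean oil, or AIN-93G with genistein at 0.5 g per kg (0.05%). Genistein is a soy isoflavone that binds oestrogen receptors. On day 14 the left sciatic nerve was cut and the other hind leg had a sham operation, and soleus was taken 10 days later. Within a diet, the denervated and the sham pool were therefore made from the left and right legs of the same 8 animals, and every sham muscle came from a rat that also carried the nerve injury.

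With 1 array a group no value is replicated, no test was run, and every count below describes these 4 arrays. The comparisons also share arrays, since each array enters both a denervation and a diet ratio. Groups follow the sample titles, since the treatment field of 2 samples contradicts them. Chrna1, the muscle acetylcholine receptor alpha subunit that climbs after nerve loss, read 16186 units in genistein denervated and 1589 in genistein sham muscle, and 20549.7 in control denervated and 1859.7 in control sham muscle. It was high on the arrays whose titles say denervated. Myog was likewise higher in both denervated pools, by log2 ratios of 2.09 on genistein and 1.82 on the control diet, and Chrng was above the floor only on the 2 denervated arrays. All 10 skeletal muscle markers, slow-fibre Myh7 and Tnni1 among them, were above the floor on all arrays, as the label soleus requires. The median signal of an array was 120.8 to 132.5 units. The ratio of 3′ to 5′ actin signal, which climbs as RNA degrades, stood at 2.76 and 3.79 in genistein and control denervated muscle. In genistein and control sham muscle it stood at 2.32 and 2.08. The same ratio for GAPDH went the other way. It was 1.13 and 1.14 in genistein and control denervated muscle, against 1.20 and 1.24 in genistein and control sham muscle.

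The proteasome is the protease that breaks down proteins tagged with ubiquitin. Its hollow core is built of stacked alpha and beta rings, with the cutting sites on some of the beta subunits. The 19S cap holds a ring of ATPases that unfold substrates and a lid and base of non-ATPase subunits that bind and remove ubiquitin. In cells exposed to interferon gamma, and in immune cells, the subunits encoded by Psmb8, Psmb9 and Psmb10 replace the standard cutting subunits encoded by Psmb5, Psmb6 and Psmb7 and give the immunoproteasome, which is known for making peptides for antigen presentation. In wasting muscle the ubiquitin-proteasome pathway is a main route of loss of contractile protein.

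The promoters of the 3 immunoproteasome genes are shown because these genes had the largest denervation ratios of the family on genistein. The sequences are from RefSeq on GRCr8 and run from 250 bases before the annotated start to 50 after it, 5′ to 3′ on the gene's strand. Capitals mark matches to the core of the interferon-stimulated response element, written here as GAAA, any 2 bases, GAAA, searched on both strands.
Psmb10 promoter, chr19:50743243-50743542, minus strand: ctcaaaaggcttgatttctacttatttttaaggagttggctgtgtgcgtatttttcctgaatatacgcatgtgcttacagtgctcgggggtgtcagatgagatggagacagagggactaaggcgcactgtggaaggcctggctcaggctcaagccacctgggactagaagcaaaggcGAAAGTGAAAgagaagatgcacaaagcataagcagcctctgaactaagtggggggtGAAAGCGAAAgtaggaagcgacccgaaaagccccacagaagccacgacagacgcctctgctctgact
Psmb8 promoter, chr20:4656982-4657281, minus strand: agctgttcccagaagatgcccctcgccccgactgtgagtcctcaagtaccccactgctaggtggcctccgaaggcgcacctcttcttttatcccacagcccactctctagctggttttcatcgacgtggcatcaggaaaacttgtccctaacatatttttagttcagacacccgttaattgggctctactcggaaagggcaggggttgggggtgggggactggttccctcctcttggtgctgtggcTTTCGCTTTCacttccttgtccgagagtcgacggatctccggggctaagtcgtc
Psmb9 promoter, chr20:4668750-4669049, plus strand: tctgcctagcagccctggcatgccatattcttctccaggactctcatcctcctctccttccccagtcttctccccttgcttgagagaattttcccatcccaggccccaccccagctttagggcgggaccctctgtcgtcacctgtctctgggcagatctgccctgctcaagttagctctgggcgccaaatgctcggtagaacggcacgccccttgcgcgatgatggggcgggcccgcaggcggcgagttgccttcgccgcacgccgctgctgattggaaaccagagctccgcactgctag
Psmb10 held 2 matches on the gene's strand, starting at bases -73 and -17 from the start, and Psmb8 held 1 on the opposite strand, with its leftmost base at -4. The Psmb9 window held none.

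A promoter of that length was found for 40 of the 44 genes, all but Psma7, Psmd6, Psmd12 and Psmd14. The interferon motif stood in 7 of the 40 (17.5%), against 2.99% of 11700 promoters of genes on the array. The matches are listed, each read 5′ to 3′ on the strand that holds it. The search fixed GAAA at both ends of every match, so only the bases between could differ, and likeness of the ends carries no information.
Psma4: GAAAATGAAA
Psmb3: GAAAGTGAAA
Psmb8: GAAAGCGAAA
Psmb10, upstream match: GAAAGTGAAA
Psmb10, downstream match: GAAAGCGAAA
Psmd7: GAAAGGGAAA
Psme2: GAAAGCGAAA
Psmg4: GAAAGTGAAA
The core of the antioxidant response element, TGACNNNGC, through which the transcription factor encoded by Nfe2l1 is known to act on proteasome genes, stood in 7 of 40 promoters (17.5%), against 14.4% on the array, which is near the background. CCAAT, the box bound by NF-Y, stood in 20 of 40 (50.0%), against 37.3%. The interferon-gamma activated site, TTCNNNGAA, stood in 4 of 40 (10.0%), against 6.99%. All motifs were searched on both strands and separately, so matches of different motifs may overlap, and a match describes letters, not a bound site. Genes with the interferon motif had a median denervation log2 ratio of 0.40 on genistein and 0.44 on the control diet, and the 33 without it 0.36 and 0.27. For the antioxidant motif the medians were 0.30 and 0.13 with it and 0.40 and 0.33 without it. The interferon-gamma activated site gave 0.40 and 0.39 with it and 0.34 and 0.28 without it. CCAAT gave 0.40 and 0.30 with it and 0.31 and 0.30 without it.

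The first question is what nerve loss did to proteasome mRNA in each diet. Most of the family was slightly higher in denervated muscle: 38 of 44 genes had a log2 ratio above 0 on genistein, where 51.7% of all 10810 measured genes did, and 37 of 44 on the control diet, where 49.8% of 10755 did. Among the 9362 genes that, like all 44 members, were above the floor on every array, 53.3% and 51.9% were above 0. The median log2 ratio of the family was 0.34 on genistein and 0.28 on the control diet, beside 0.02 and 0.00 over all genes. In both diets 36 of 44 were above 0, against 41.0% of all genes, and 5 (Psma7, Psmb5, Psmd8, Psmd12 and Psmg2) were below 0 in both. All 44 were above the floor of 78.9 units on every array, so no member was lost to the filter on low signals.

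Large ratios were few. At least 1.5-fold higher were 6 of 44 on genistein, where 14.5% of all genes were, and 5 of 44 on the control diet, where 14.0% were. As deposited, these shares are near the background, also that of genes above the floor on every array (14.7% and 14.3%). None of the 44 on genistein and 1 on the control diet (Psmd9) were at least 1.5-fold lower, against 15.4% and 17.7% of all genes (15.1% and 17.0% of those above the floor on every array). Past 1.5-fold higher in both diets were 4, Psmb8, Psmb9, Psme1 and Psmg3, against 9.30% of all genes, again near the background, and 0 were 1.5-fold lower in both, against 11.3%. Only Psmb9 passed 2-fold, which 4.96% of all genes did on genistein and 5.04% on the control diet. No member was 2-fold lower, against 6.57% and 7.63% of all genes. The ratios were also close together, with an SD across members of 0.30 on genistein and 0.32 on the control diet, beside 0.72 and 0.74 across all genes.

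**Figure D1:**
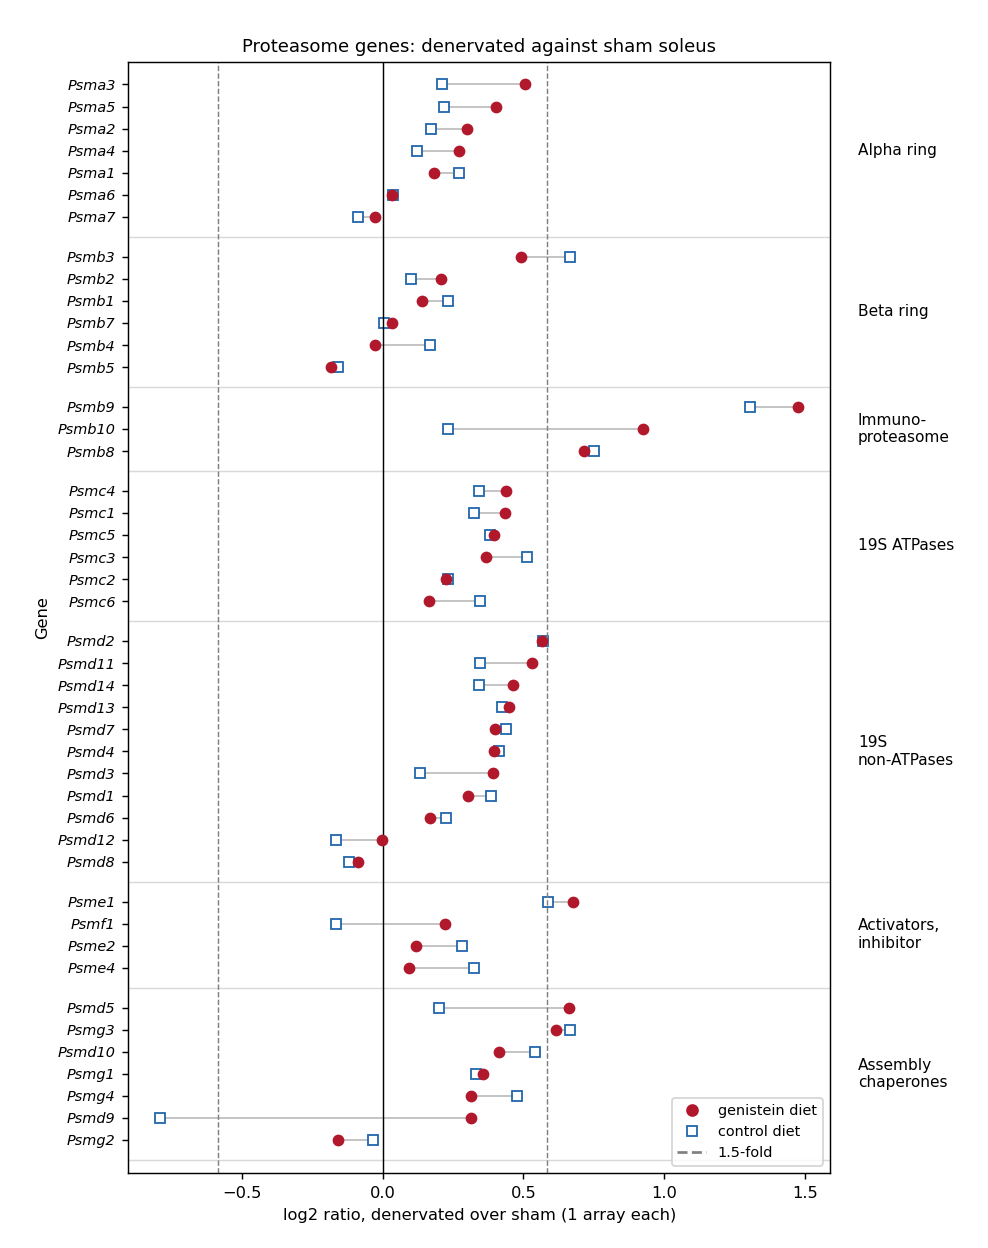
Log2 ratio of denervated over sham signal for each of the 44 proteasome genes, by class down the page, on the genistein diet (filled circles) and the control diet (open squares), with dashed lines at 1.5-fold. Most points lie between 0 and 0.58 in both diets, with Psmb9 at 1.48 and 1.31 and Psmd9 at 0.31 and -0.79.

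Scatter between probe sets gives a scale for such small ratios. Over 2310 genes, probe sets of the same gene differed about their mean with an SD of 0.36 log2 units for denervation on genistein and 0.35 on the control diet, and these SDs leave out any difference between pools. By that measure 23 of 44 members on genistein and 29 on the control diet had ratios within 1 SD of 0. Above 1 SD were 21 and 14 members, and below -1 SD were 0 and 1. The same counts were not made over all genes, so they do not set the family apart from other genes. For the 5 members with several probe sets above the floor on all arrays (13 probe sets) the SD was 0.14 and 0.17.

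As deposited, the alpha and beta rings of the core had small ratios. The alpha ring, whose subunits gate entry to the chamber, had a median of 0.27 on genistein and 0.17 on the control diet, with 6 of 7 genes above 0 in each and none past 1.5-fold. Psma3 was the highest alpha gene on genistein: it read 1785 units in genistein denervated and 1258 in genistein sham muscle, and 1412 in control denervated and 1220.5 in control sham muscle, with ratios of 0.50 and 0.21. Psma7 was the lowest, at -0.03 and -0.09. Its 4 signals lay between 6711 and 7191 units.

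Among the 6 standard beta genes the median was 0.09 on genistein and 0.13 on the control diet, and quantile normalization raised it to 0.35 and 0.32. Psmb3, a non-catalytic beta subunit, stood out from its ring. It read 6482 units in genistein denervated and 4615 in genistein sham muscle (0.49), and 7036 in control denervated and 4438 in control sham muscle (0.66). Both denervated arrays were above both sham arrays. Psmb5, which carries the chymotrypsin-like site, read 7702 units in genistein denervated and 8738 in genistein sham muscle (-0.18), and 8823 in control denervated and 9859 in control sham muscle (-0.16). Both ratios of Psmb5 change sign with the scaling: they were 0.12 and 0.12 after quantile normalization, and 0.30 and 0.21 with arrays scaled to spike-ins. Psmb7, which carries the trypsin-like site, read 2430.3 units in genistein denervated and 2372 in genistein sham muscle (0.03), and 2686 in control denervated and 2676 in control sham muscle (0.01). Psmb4 was at -0.03 and 0.17 (0.37 and 0.53 under quantile normalization, 0.45 and 0.53 under spike-in scaling), and Psmb1 and Psmb2 lay between 0.10 and 0.23.

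The 3 immunoproteasome genes had the largest ratios of the family on genistein, and Psmb9 and Psmb8 the largest on the control diet. Psmb9 read 1301 units in genistein denervated and 468 in genistein sham muscle, and 1135 in control denervated and 459 in control sham muscle. That was 2.78-fold and 2.47-fold higher, a ratio that 1.96% of all genes reached on genistein and 2.92% on the control diet. Psmb8 read 540.3 units in genistein denervated and 329 in genistein sham muscle, and 458 in control denervated and 272 in control sham muscle, 1.64-fold and 1.68-fold higher. For both genes the 2 denervated arrays lay above the 2 sham arrays.

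Psmb10 differed between the diets. It read 709.6 units in genistein denervated and 374 in genistein sham muscle, a ratio of 1.90-fold, and 443 in control denervated and 378 in control sham muscle, 1.17-fold. Only the genistein denervated array stood clear of the other 3. Each of these genes has 1 probe set.

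Set against the standard subunit each replaces, a comparison that a constant scaling of an array leaves as it is, Psmb8 had a denervation ratio 0.90 log2 units above that of Psmb5 on genistein and 0.91 above it on the control diet. Under quantile normalization these differences were 0.49 and 0.57. The ratio of Psmb10 was 0.89 above that of Psmb7 on genistein and 0.23 above it on the control diet (0.80 and 0.20 under quantile normalization). Psmb6, the standard partner of Psmb9, had no probe set of its own. Signals of different probe sets cannot be set against each other, so these differences do not say what share of core particles carried either kind of subunit.

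**Figure D2:**
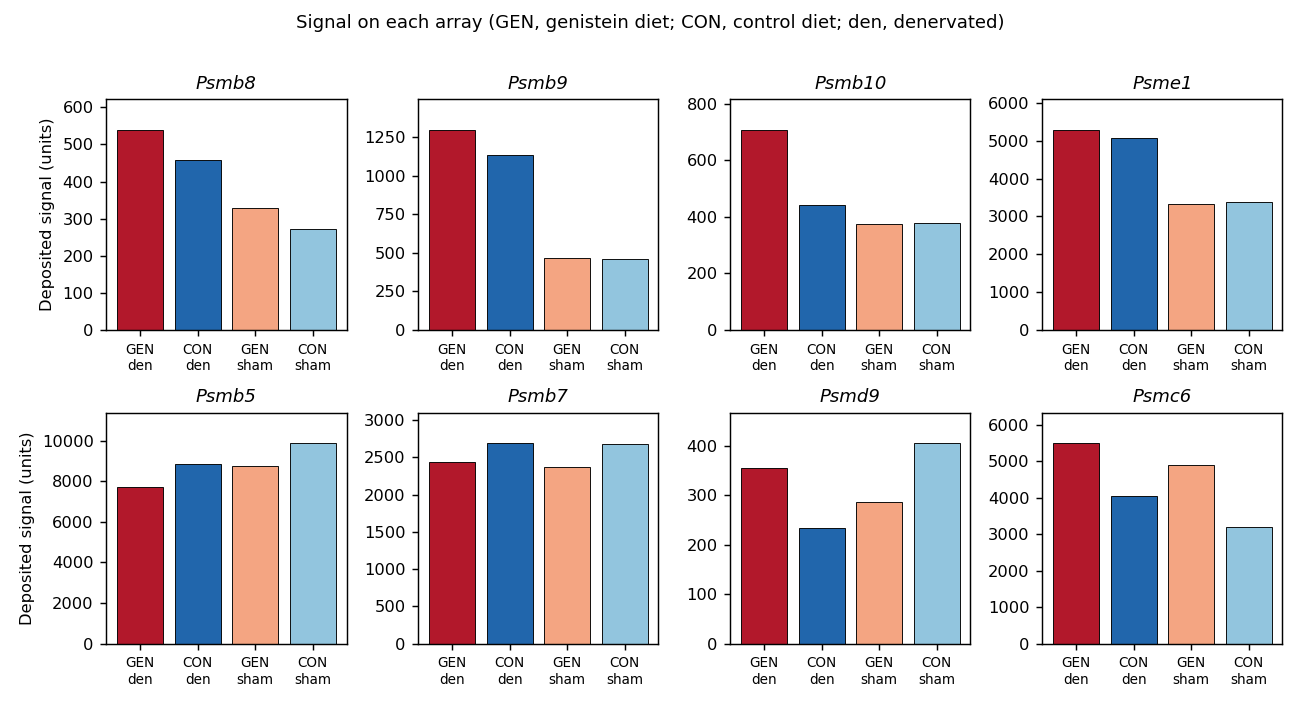
Deposited signal on each of the 4 arrays for 8 genes, 1 bar an array with no error bar because each group is 1 pool, with axes that start at 0 and differ between genes. Psmb8, Psmb9 and Psme1 are higher in both denervated pools, Psmb10 in the genistein denervated pool (709.6 units, the others 374 to 443), and Psmc6 on both genistein arrays.

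The ATPases of the 19S cap had the most even ratios. All 6 genes were above 0 in both diets, with a median of 0.38 on genistein and 0.34 on the control diet and ratios between 0.16 and 0.51. Psmc3 gave 5257 units in genistein denervated and 4079 in genistein sham muscle (0.37), and 6002 in control denervated and 4209.8 in control sham muscle (0.51). Psmc1, Psmc4 and Psmc5 lay between 0.33 and 0.44. Psmc2 was lower among them at 0.23 and 0.23. By its brightest probe set Psmc6 had ratios of 0.16 and 0.35, and its other 2 probe sets gave 0.20 and 0.06, and 0.41 and 0.10.

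Of the 11 non-ATPase genes, 9 were above 0 in each diet and none passed 1.5-fold, with medians of 0.40 on genistein and 0.35 on the control diet. These values are of each gene's brightest probe set unless another is named. Psmd2, the large base subunit that docks ubiquitin carriers, had the highest pair of ratios: 7835 units in genistein denervated and 5292 in genistein sham muscle (0.57), and 7732 in control denervated and 5204 in control sham muscle (0.57). Psmd11, a lid subunit, was at 0.53 and 0.35, and its second measured probe set gave 0.60 and 0.42. Psmd14, the deubiquitinase of the lid, was at 0.46 and 0.34, while its other probe sets gave 0.79 and 0.51, and 0.70 and -0.02. Psmd4, a ubiquitin receptor, was at 0.40 and 0.41, and Psmd7, the partner of Psmd14, at 0.40 and 0.44. The second probe set of Psmd7 gave 0.49 and 0.63, past 1.5-fold on the control diet. Psmd13 and Psmd1 lay between 0.30 and 0.45. Psmd8 (-0.09 and -0.12) and Psmd12 (0.00 and -0.17) were at or below 0, and spike-in scaling turned them positive in both diets (Psmd8 0.40 and 0.25, Psmd12 0.48 and 0.20).

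The median of the 17 genes of the cap exceeded that of the 13 standard core genes by 0.21 log2 units on genistein and 0.18 on the control diet. Quantile normalization left 0.10 and 0.16.

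The regulators that bind the core in place of the cap had unlike ratios. Psme1, which encodes the alpha subunit of the interferon-inducible activator PA28, read 5294 units in genistein denervated and 3314 in genistein sham muscle, and 5076 in control denervated and 3376 in control sham muscle. Its log2 ratios were 0.68 and 0.59, and both denervated arrays were above both sham arrays. A second probe set of Psme1 was below the floor on 3 arrays, and with the mean of both the genistein ratio was 0.25, no longer past 1.5-fold. Psme2, the beta subunit of the same activator, read 2064 units in genistein denervated and 1901 in genistein sham muscle (0.12), and 1981 in control denervated and 1628 in control sham muscle (0.28). Psme4, which encodes the activator PA200, read 4105 units in genistein denervated and 3848 in genistein sham muscle (0.09), and 4255 in control denervated and 3395 in control sham muscle (0.33). The 2 further probe sets of Psme4 gave 0.28 and 0.48, and 0.42 and 0.44. Psmf1, which encodes the inhibitor PI31, read 1508 units in genistein denervated and 1294 in genistein sham muscle (0.22), and 1175 in control denervated and 1316 in control sham muscle (-0.16, or 0.20 under spike-in scaling). As deposited, the signs of Psmf1 were thus opposite in the 2 diets.

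Assembly chaperones covered the widest range on the control diet. Psmg1 to Psmg4 encode factors that build the alpha ring, and Psmd5, Psmd9 and Psmd10 encode chaperones of the 19S base. Psmg3 read 1152 units in genistein denervated and 752 in genistein sham muscle (0.62), and 1318 in control denervated and 829.7 in control sham muscle (0.67). Its dimer partner Psmg4 was higher by less, with 2946 and 2372 units in genistein denervated and sham muscle (0.31) and 3390 and 2437 in control denervated and sham muscle (0.48). Psmg1 read 1884 and 1470.1 units in genistein denervated and sham muscle (0.36), and 2027 and 1609 in control denervated and sham muscle (0.33). Psmg2, with which Psmg1 pairs, did not share that direction, with 952 and 1062 units in genistein denervated and sham muscle (-0.16) and 1031 and 1056 in control denervated and sham muscle (-0.04). On spike-in scaling the genistein value of Psmg2 was 0.32. Psmd10, also known as gankyrin, was at 0.41 and 0.54.

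The other 2 base chaperones differed between diets. Psmd5 read 2172 units in genistein denervated and 1374 in genistein sham muscle (0.66), and 1943 in control denervated and 1690.3 in control sham muscle (0.20). Psmd9 read 356 units in genistein denervated and 286 in genistein sham muscle (0.31), and 234 in control denervated and 405 in control sham muscle (-0.79). Its 4 signals thus had no order by operation. A second, dimmer probe set of Psmd9, between 67.6 and 96.2 units, gave -0.18 and 0.04, with its control sham signal below the floor.

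Genes that act with the proteasome but lie outside the symbol rule were taken from a list of 26, of which 20 were named on the array and all 20 were above the floor on every array. Their medians were 0.23 on genistein and 0.22 on the control diet, with 17 and 16 above 0, 4 and 3 at least 1.5-fold higher, and 0 and 1 at least 1.5-fold lower. The counts past 1.5-fold higher are near the background of 14.5% and 14.0% of all genes. Of all genes 51.7% and 49.8% were above 0, and 15.4% and 17.7% were at least 1.5-fold lower. Nfe2l1, which encodes the transcription factor that raises proteasome genes when the proteasome is overloaded, read 7037 units in genistein denervated and 4065 in genistein sham muscle (0.79), and 8097 in control denervated and 4612 in control sham muscle (0.81). Its other 2 probe sets gave 0.97 and 1.55, and 2.00 and 1.30, so all 3 were higher in both diets. Ddi2, the protease that cuts and activates that factor, was at 0.99 and 1.45. Both genes passed 1.5-fold in both diets.

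By brightest probe sets Akirin2 had the highest ratio of the list on genistein (1.102) and was at 0.30 on the control diet. It encodes a factor that carries the proteasome into the nucleus. Ubqln4, a shuttle factor for ubiquitin-tagged proteins, had the lowest in both, -0.56 and -0.64. Some dimmer probe sets went further. Txnl1 was at 0.22 and 0.10 by its brightest, and its others gave 1.59 and 2.11, 1.24 and 1.01, and 0.17 and -0.18. Ecpas was at 0.055 and 0.17 by its brightest, and the lowest of its others gave -1.68 and -1.15. Pomp, the maturation factor of the core, was at -0.19 and -0.06.

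Genes that respond to interferon or process antigen were set beside the immunoproteasome, since Psmb8, Psmb9, Psmb10, Psme1 and Psme2 are known to be induced with them. The list was split. Of 25 measured genes 16 were above 0 on genistein and 14 on the control diet, where 51.7% and 49.8% of all genes were. The medians of the list were 0.10 and 0.06. At least 1.5-fold higher were 7 and 5, and at least 1.5-fold lower were 1 and 3, where 14.5% and 14.0% of all genes were that much higher and 15.4% and 17.7% that much lower. Those past 1.5-fold higher in both diets were Irf1, Nlrc5, Tap1, Tap2 and Ubd. B2m, the light chain of class I molecules, was at 0.40 and 0.47 by its brightest probe set and at 1.57 and 1.59 by its second.

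Irf1, the interferon gamma-responsive factor known to act on Psmb9, read 757 units in genistein denervated and 337 in genistein sham muscle (1.17), and 795 in control denervated and 413 in control sham muscle (0.95). Tap1 and Tap2, the peptide transporter genes that lie beside Psmb9 and Psmb8 in the major histocompatibility region, were at 0.83 and 0.70, and at 1.29 and 0.98. Ubd, the ubiquitin-like modifier FAT10, read 370.4 units in genistein denervated and 274 in control denervated muscle, with neither sham pool above the floor, at least 2.23 and 1.80 log2 units higher. Nlrc5, the activator of class I antigen presentation genes, was at least 1.55 and 2.08 higher, with both sham pools below the floor. Other interferon genes had mixed signs: Irf7 (0.32 and 0.14) and Ifi35 (0.04 and 0.12) were above 0 in both diets, Isg15 (0.09 and -0.15) in one, and Mx1 (-0.17 and -0.43) and Rsad2 (-0.24 and -0.33) in neither. Mx2 had the lowest ratios of the list by its brightest probe set (-1.45 and -1.07), while its second gave -0.55 and 0.01.

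Whole muscle also holds immune, vascular and connective tissue cells, some of which express immunoproteasome genes, and in pooled tissue fewer cells of a type and less RNA per cell cannot be told apart. Of 22 leukocyte and macrophage markers 21 were on the array, and the T cell and B cell markers Cd3e, Cd8a and Ms4a1 were below the floor on all 4 arrays. Their summed signal was 11434 units in genistein denervated and 11836 in genistein sham muscle, and 6775 in control denervated and 11422 in control sham muscle. On the control diet 1 of 17 measured markers was above 0 after denervation (median -0.73). Psmb8, Psmb9 and Psmb10 were at 0.75, 1.31 and 0.23 on that diet. On genistein 7 of 18 markers were above 0 (median -0.07), and Psmb8, Psmb9 and Psmb10 were at 0.71, 1.48 and 0.92. Aif1, a macrophage marker, was the highest in both diets (1.03 and 0.06) and the T cell marker Cd3g the lowest (-0.90 and -1.19). The part of these cells in the Psmb8, Psmb9 and Psmb10 values was not tested.

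Endothelial markers had medians of -0.45 on genistein and -1.02 on the control diet, and fibroblast and matrix markers -0.61 and -1.35. Their summed signals were 3897 and 42076 units in genistein denervated and 5115 and 58471 in genistein sham muscle, and 2582 and 24863 in control denervated and 5099 and 57791 in control sham muscle. The 10 skeletal muscle genes were all below 0, with medians of -0.75 and -0.64 and summed signals of 206825 and 248480.2 units in the genistein and control denervated pools, against 345962.5 and 389920.6 in the genistein and control sham pools. Proteasome genes were thus higher on arrays where the brightest muscle transcripts were lower. The part of this shift in composition in the proteasome medians was not tested.

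**Figure D3:**
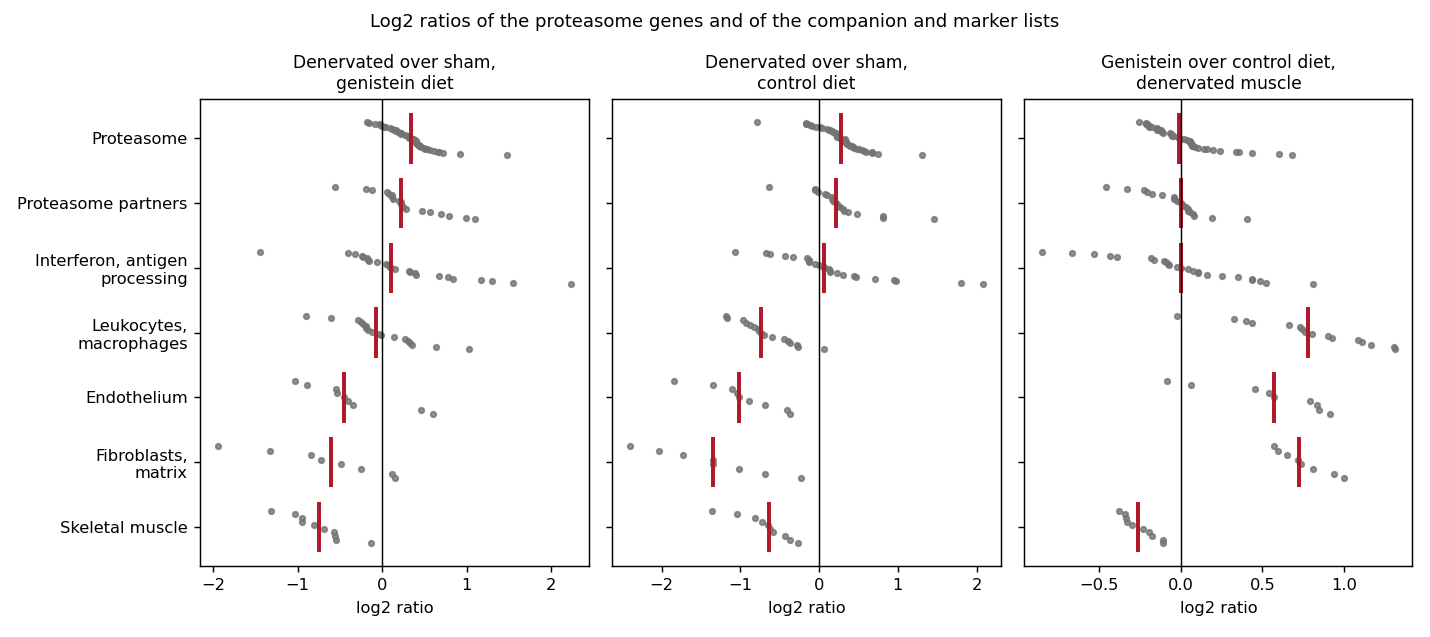
Log2 ratios of each measured member (grey points) and their median (red bar) for the 44 proteasome genes and 6 companion or marker lists, for denervation on each diet and for genistein over control diet in denervated muscle, with x axes of different width. The proteasome medians of 0.34 and 0.28 after denervation lie to the right of the marker medians, and its diet median in denervated muscle is -0.01 where the leukocyte median is 0.78.

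The size of the shift depends on how arrays are scaled, and its place relative to other genes depends less on it. Scaling to the hybridisation spike-in controls raised the proteasome median to 0.82 on genistein and 0.64 on the control diet, together with the median of all genes (0.48 and 0.35). Relative to the all-gene median the proteasome stood at 0.31 and 0.28 as deposited, 0.31 and 0.28 with array medians, 0.41 and 0.35 with quantile normalization and 0.33 and 0.29 with spike-ins. Under spike-in scaling 35 and 27 of the 44 genes passed 1.5-fold higher, as did 42.5% and 33.3% of all genes.

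**Figure D4:**
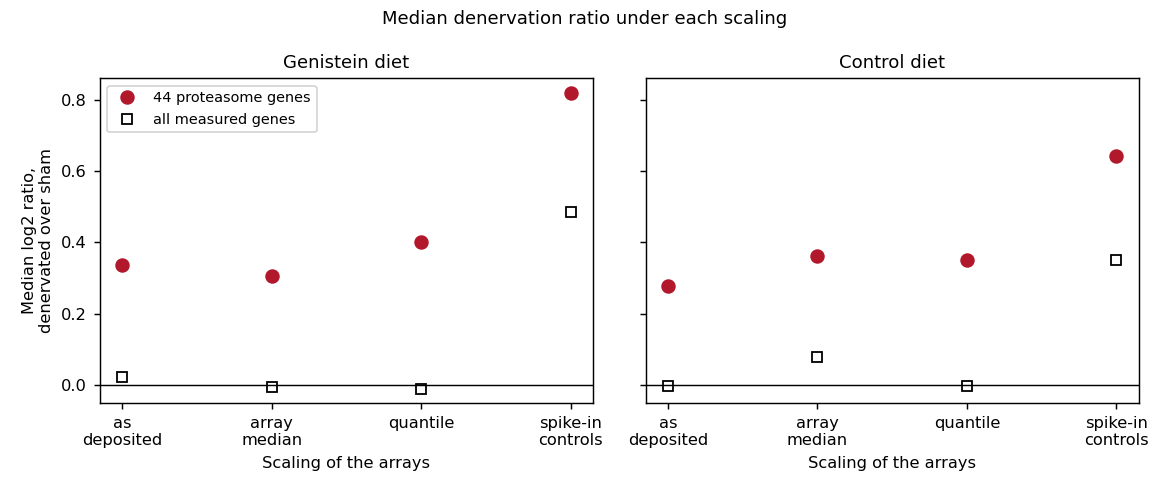
Median denervation log2 ratio of the 44 proteasome genes (filled circles) and of all measured genes (open squares) under 4 ways of scaling the arrays, for each diet. The gap between the 2 medians stays between 0.28 and 0.41 while both shift upward under spike-in scaling.

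The next question is whether genistein changed proteasome mRNA. In denervated muscle the family as a whole sat at the all-gene level: the median log2 ratio of genistein over control diet was -0.01, beside 0.00 over all 10479 genes, and 21 of 44 genes were above 0, where 50.0% of all genes were. At least 1.5-fold higher were 2 of 44, Psmb10 and Psmd9, where 6.22% of all genes were. None were at least 1.5-fold lower, against 1.79% of all genes. Of the 9362 genes measured on every array 48.6% were above 0, 5.52% were 1.5-fold higher and 1.40% 1.5-fold lower. No member passed 2-fold, which 1.02% of all genes did upward and 0.124% downward. With the SD between probe sets at 0.25 for this comparison, 38 of 44 members were within 1 SD of 0, a count not made over all genes.

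Psmb10 was 1.60-fold higher on genistein in denervated muscle (709.6 and 443 units), a ratio that 4.47% of all genes reached. With array medians its log2 ratio was 0.545, short of 1.5-fold. Psmb8 (0.24) and Psmb9 (0.20) were higher by less, so all 3 immunoproteasome genes were above 0. Relative to Psmb7, Psmb10 was 0.82 log2 units higher, and Psmb8 was 0.44 higher relative to Psmb5 (0.19 with the mean of probe sets). In sham muscle these differences were 0.16 for Psmb10 and 0.45 for Psmb8 (0.51 with the mean of probe sets). Between the denervated pools 15 of 16 measured leukocyte markers were above 0 and 12 were at least 1.5-fold higher, with a median of 0.78. Endothelial markers had a median of 0.57 and fibroblast and matrix markers 0.73, with 8 of 9 and 8 of 8 above 0. Of 25 measured interferon and antigen processing genes 12 were above 0, where 50.0% of all genes were, with a median of 0.00. By brightest probe sets Gbp2, a guanylate-binding protein induced by interferon, was the highest of them at 0.81. Ifit2 was at 0.44 by its brightest probe set and at 0.97 by its second. Mx2 was the lowest at -0.85, with its second probe set at 0.47. Tapbp (0.35) and Tap2 (0.25) were above 0, and Irf1 (-0.07), Tap1 (-0.02) and B2m (-0.16) below. The part of immune cells in the Psmb10 difference was not tested.

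Psmd9 was 0.60 log2 units higher (356 units in genistein denervated and 234 in control denervated muscle), but its second probe set gave 0.06. Psmc6 was at 0.44, with its other probe sets at 0.30 and 0.17, Psmf1 at 0.36 and Psma3 at 0.34. The lowest ratios were those of Psmd10 (-0.25), Psmb4 (-0.21), Psmd3 (-0.21), Psmg4 (-0.20) and Psmb5 (-0.20), all within 1 SD of the scatter between probe sets except Psmd10. Of the beta ring, 1 of 6 genes was above 0, with a median of -0.16. Of the 20 partner genes none passed 1.5-fold in either direction. By brightest probe sets Ddi2 was the lowest of them at -0.45 and Akirin2 the highest at 0.41, while a dimmer probe set of Ecpas gave -0.58.

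In sham muscle, with the nerve intact in that leg, the median was -0.04, beside 0.00 over all 10819 genes, and 13 of 44 genes were above 0, where 50.5% of all genes were. The deviations were small: 38 of 44 lay within the probe set SD of 0.26, a count not made over all genes. Only Psmc6 was at least 1.5-fold higher, where 2.67% of all genes were, and none were at least 1.5-fold lower, where 2.50% were. Of those 9362 genes 50.4% were above 0, 2.02% were 1.5-fold higher and 1.74% 1.5-fold lower. No member passed 2-fold, which 0.324% of all genes did upward and 0.287% downward. Psmc6 read 4895 units in genistein sham and 3195 in control sham muscle (0.62), but its other 2 probe sets gave 0.00 and 0.03. Psmb8 (0.28), Psme2 (0.22), Psme4 (0.18) and Psma1 (0.15) followed.

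The lowest values in sham muscle belonged to Psmd9 (-0.50), Psmd3 (-0.47), Psma5 (-0.30), Psmd5 (-0.30) and Psmb5 (-0.17). Psmd3, a lid subunit, read 926 units in genistein sham and 1279.7 in control sham muscle. Of the 7 assembly chaperones 1 was above 0. Psmb9 and Psmb10 were at 0.03 and -0.01, so the sham pools of both diets had like signals of these genes. Leukocyte markers in sham muscle had a median of 0.07, with 10 of 18 above 0.

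**Figure D5:**
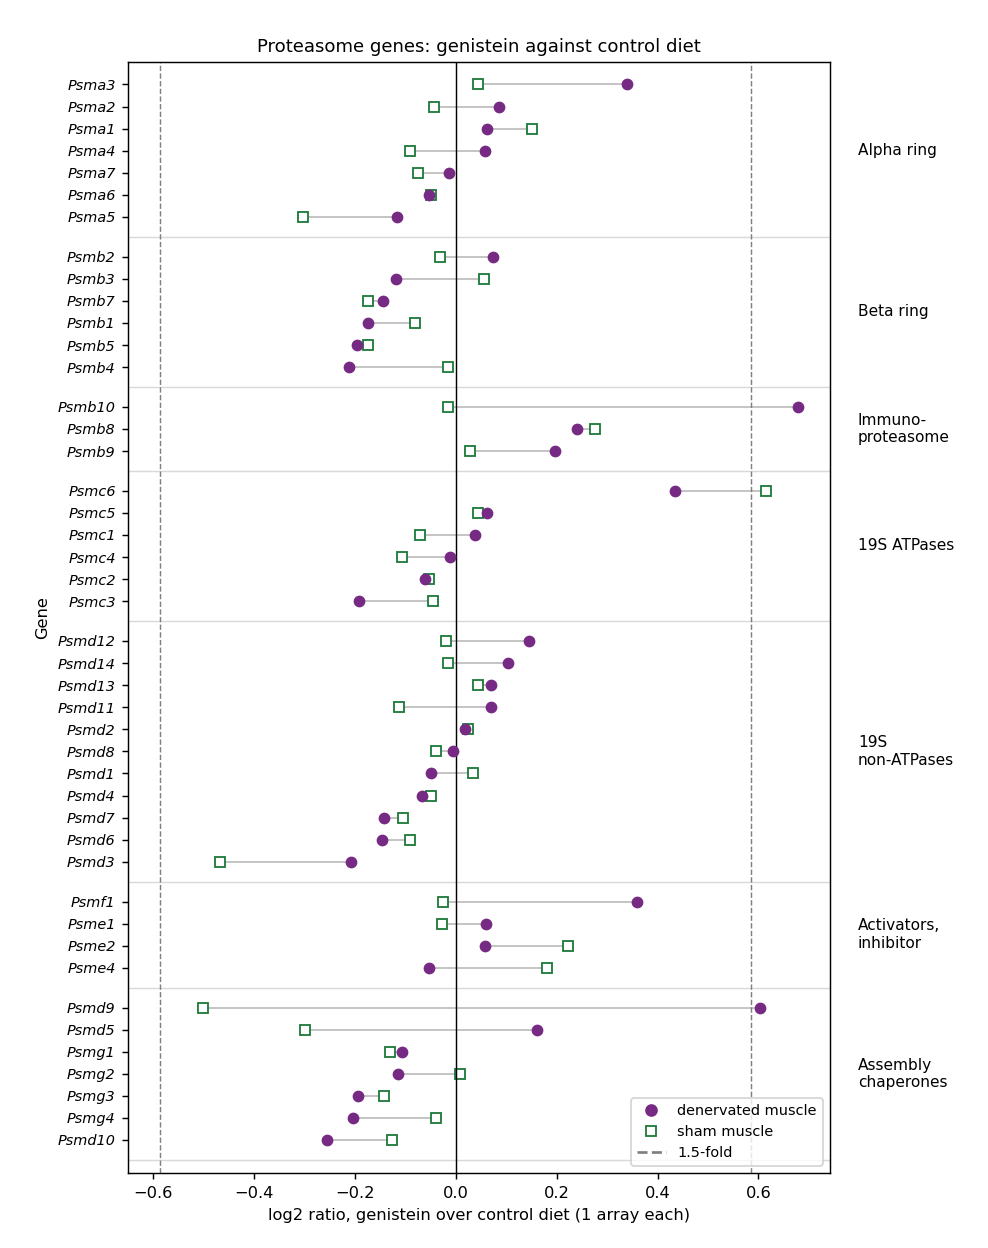
Log2 ratio of genistein over control diet for each of the 44 proteasome genes, by class, in denervated muscle (filled circles) and sham muscle (open squares), with dashed lines at 1.5-fold. Psmb10 (0.68) and Psmd9 (0.60) pass the line in denervated muscle and Psmc6 (0.62) in sham muscle.

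The last comparison subtracts the denervation log2 ratio on the control diet from that on genistein, gene by gene, and so uses all 4 arrays. Its median over the family was 0.02, beside 0.00 over all 11151 genes, and 23 of 44 were above 0, where 49.5% of all genes were. It was at least 1.5-fold for 2 of 44, Psmd9 (1.102) and Psmb10 (0.69), where 8.45% of all genes were that much higher and 4.45% that much lower. Past 2-fold was Psmd9 alone, where 1.88% of all genes were that much higher and 0.708% that much lower. Of the genes above the floor on every array, 48.8% were above 0, 7.74% were 1.5-fold higher and 3.91% 1.5-fold lower. Psmd5 (0.46), Psmf1 (0.38) and Psma3 (0.29) came next, and Psme4 (-0.23), Psmb4 (-0.20) and Psmc6 (-0.18) were lowest. For Psmb9 and Psmb8 the denervation effects differed by 0.17 and -0.04. The leukocyte list differed by a median of 0.72, with 17 of 18 markers above 0.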

How the data were processed

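Per the labels' protocols, RNA of 8 rats was pooled in each group, made into biotinylated aRNA and put on 1 Affymetrix array. The deposited value is a linear intensity, 1 for each probe set on each array, made with GCOS 1.1 per the submitters' processing notes. For the scaling target the sources used here give no value. The mean signal after trimming 2% of probe sets at each end was 500.0 on every array, so signals were used as deposited, with no further normalization. Of 31099 probe sets 57 are controls, 20826 were paired with 1 gene by the platform annotation, 436 with several, and 9780 were unnamed here. Of the named, 20758 matched a gene ID of GRCr8.

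A floor was set at the 40th percentile of signals without the controls (78.9 units), and lower signals were raised to it before taking log2. For each gene the brightest probe set, by mean log2 signal, was used, and was measured in a comparison if at least 1 array was above the floor. Groups were compared as log2 ratios, with 1.5-fold and 2-fold as sizes of interest, and the number of arrays limits the precision. Genes named were the immunoproteasome genes and their partners, the activators and inhibitor, Psmg1 to Psmg4, the genes that check the labels, the 5 highest and 5 lowest ratios of each comparison, and, of the companion lists, the highest, the lowest and those past 1.5-fold in both diets. Others named as examples of their class or list were chosen after their values were seen. The members and lists were chosen with earlier results of these data known. Alternatives were array median, quantile and spike-in scaling (18 control probe sets), floors at the 25th and 60th percentile and the mean of a gene's probe sets. The steps were tested on simulated data. Python 3.11.15, pandas 2.3.3, numpy 2.4.6 and matplotlib 3.10.9 were used.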

Additional observations from a re-analysis of the deposited data

Results flagged for a closer look

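Psmd9, which encodes a chaperone of the 19S base, had denervation ratios of opposite sign in the 2 diets, which drew attention to it. Its log2 ratio was 0.31 on genistein and -0.79 on the control diet, a difference of 1.102. The difference was not tested, since each group is 1 array. Its second probe set, near the floor, gave -0.18 and 0.04, and the mean of both probe sets gave a difference of 0.44. Psmf1 (0.22 on genistein and -0.16 on the control diet) and Psmb4 (-0.03 and 0.17) also had opposite signs, with differences under 1.5-fold that were likewise not tested. Psmb4 was above 0 in both diets after quantile normalization (0.37 and 0.53). With arrays scaled to spike-ins, both diets were above 0 for Psmb4 (0.45 and 0.53) and for Psmf1 (0.70 and 0.20).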

How the results depend on the processing

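No paired analysis was possible because each group is 1 array. The floors at the 25th and 60th percentile moved no proteasome value, since no member's signal changed. The denervation medians stayed positive in both diets under all 6 alternatives. Under spike-in scaling they were 0.82 (genistein) and 0.64 (control), with 35 and 27 genes at least 1.5-fold higher (42.5% and 33.3% of all genes) and 0 lower on the control diet (8.75%). The same scaling gave a diet median in denervated muscle of 0.12 with 33 genes above 0 (70.5% of all genes), and a median difference between the denervation effects of 0.14. With array medians, 8 genes passed 1.5-fold higher after denervation on the control diet (17.0% of all genes). Array medians also gave a diet median in denervated muscle of -0.14, with 9 genes above 0 (31.9% of all genes). For that diet effect 0 genes were at least 1.5-fold higher (3.91% of all genes). The median difference between the denervation effects was then -0.0912. Quantile normalization gave 10 genes at least 1.5-fold higher on genistein, and 1 for the diet effect in denervated muscle. With the mean of probe sets, 1 gene was at least 1.5-fold higher for diet in denervated muscle (5.88% of all genes). In sham muscle 0 were (2.40%). After denervation on the control diet 0 were at least 1.5-fold lower (17.0%), since the dim probe set of Psmd9 enters its mean (-0.37).

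Signs of small ratios turned. Psmb5 became 0.12 (genistein) and 0.12 (control) after denervation under quantile normalization and 0.30 and 0.21 under spike-in scaling. Under spike-in scaling all 44 genes were above 0 on genistein (80.0% of all genes) and 43 on the control diet (72.0%), all but Psmd9, among them Psmg2 on genistein (0.32) and, on the control diet, Psmd12 (0.20), Psmd8 (0.25) and Psmf1 (0.20). Quantile normalization left Psmd8 and Psmg2 below 0 on genistein, and 6 genes on the control diet, where 49.3% and 49.7% of all genes were above 0. For diet in denervated muscle spike-in scaling turned the assembly chaperone median (0.0145), Psma5 (0.0125), Psmb3 (0.0110), Psmg1 (0.0238) and Psmg2 (0.0145). The mean of probe sets, which takes in the dim probe sets of Psmb5, turned Psmb5 for diet in denervated muscle (0.0517). It also turned Psmc6 for the difference (0.0879). Apart from these alternatives' own construction, the cause was not tested.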

Other observations

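Psmc3ip and Psme3ip1 share the symbol stem but encode a meiotic recombination partner and a protein that binds the activator encoded by Psme3. Psmc3ip read 466.5 units in genistein denervated and 445.5 in genistein sham muscle (0.07), and 614 in control denervated and 396 in control sham muscle (0.63). Psme3ip1 lay between 1225 and 1313 units on all 4 arrays, with denervation ratios of 0.10 on genistein and 0.03 on the control diet.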
